A study of Homo sapiens with 20 samples.

Results

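The small nucleolar RNAs of HEC-1A cells, together with the Cajal body RNAs, the genes that host them and the RNA subunits of telomerase, RNase P and RNase MRP, were followed across 4 sorted populations of 1 endometrial adenocarcinoma line. Genes were taken by symbol: names beginning with SNORA, SNORD or SNHG and a digit, names beginning with SCARNA, and GAS5, TERC, RMRP and RPPH1. This gave 66 of the 12558 genes in the count table, namely 15 C/D box RNAs, 17 H/ACA box RNAs, 8 Cajal body RNAs (scaRNAs), 23 host genes and the 3 other RNAs. Cells carried a stable shRNA against EIF4G2 (EIF4G2KD) or a shRNA against GFP, which has no target in them (Control), and both kinds were selected with puromycin and sorted on the surface protein CD133, the product of PROM1. The populations were CD133- EIF4G2KD (5 libraries), CD133- Control (5 libraries), CD133+ EIF4G2KD (5 libraries) and CD133+ Control (4 libraries, numbered 1, 2, 4 and 5; the label of number 3 says that it failed quality control). All are populations of 1 line carrying 1 shRNA per gene, so that an effect of the hairpin itself cannot be told apart from that of EIF4G2 loss. Each library came from 15000 sorted cells and was made by bulk MARS-seq, which counts the ends of polyadenylated RNA.

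Box C/D and box H/ACA small nucleolar RNAs guide ribose methylation and pseudouridylation of ribosomal RNA, and scaRNAs guide the same modifications on spliceosomal RNAs in the Cajal body. In human cells most are cut out of introns of host genes, whose spliced transcripts (the SNHG genes and GAS5) are often degraded when translated. TERC, the template RNA of telomerase, ends in an H/ACA domain with a Cajal body box, while RMRP and RPPH1 are the catalytic RNAs of RNase MRP and RNase P. The mature forms of these small RNAs have no long poly(A) tail, and a MARS-seq count cannot tell a mature RNA from a tailed precursor, an internally primed fragment or a read of the host transcript. Counting RPPH1 with the small nucleolar and Cajal body RNAs, 38 lay within another gene of GENCODE v44 at their RefSeq places on GRCh38. Of these, 24 overlapped one of its exons, so that reads of host and guest may be shared. For some, among them SCARNA26A, SNORA100 and SNORD81, the strand was not available and a gene on either strand was counted.

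Library totals ran between 1679447 and 5234905 counts (median 3047418). Levels are counts per library size after TMM scaling (CPM), listed in the order of replicate numbers. EIF4G2 had 163, 102, 164, 51.1 and 36.8 CPM in CD133- EIF4G2KD cells, below all of the 360, 193, 323, 245 and 333 CPM in CD133- Control cells (exact two-sided permutation p = 0.00794, n = 5 each). In CD133+ cells the groups overlapped, with 350, 270, 130, 231 and 253 CPM in EIF4G2KD and 377, 360, 275 and 335 CPM in Control (exact two-sided permutation p = 0.0635, n = 5 and 4), and EIF4G2KD library 1 lay inside the Control range. PROM1 had 0.428 to 3.31 CPM in the 10 CD133- libraries and 11.6 to 26.4 CPM in the 9 CD133+ libraries. The 7 epithelial markers summed to 3363 to 6048 CPM, none of 6 stromal and 3 endothelial markers was in the table, and of 4 immune markers only CD68 was (0 to 3.22 CPM). On the leading principal component, number 3 of CD133+ EIF4G2KD and numbers 2, 4 and 5 of CD133- EIF4G2KD scored 20.0 to 72.7, against -22.5 to 1.41 in the other 15 libraries.

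The genes carried 0.333% of all counts, and host genes held 94.1% of that. The 8 highest, SNHG25, GAS5, SNHG6, SNHG32, SNHG29, SNHG7, SNHG5 and SNHG8, took 72.6%. Of the 66 genes, 36 passed the filter on low counts (22 of 23 host genes, 5 of 17 H/ACA RNAs, 3 of 15 C/D RNAs, 4 of 8 scaRNAs and 2 of the 3 other RNAs). The 30 that did not never exceeded 6.1 CPM in any library. A gene passed when 4 libraries reached 3.28 CPM, so several low genes passed mainly through the populations where they were high: SCARNA26A reached this level in 3 of 5 CD133+ EIF4G2KD libraries and in none of 4 CD133+ Control libraries, and SNORA57 in 4 of 5 and in none of 4.

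The sequences below are those of RNAs the comparisons turned on, taken from the GRCh38 genome at their GENCODE places, with SCARNA20 for its likeness to SCARNA22. SCARNA26A and SNORA100 are named only. In H/ACA RNAs and scaRNAs the capitals mark the ACA trinucleotide that sits 3 bases before the end and, where it occurs, a TGAG of the kind that forms the Cajal body box. Of annotated human SNORA RNAs, 66.4% had ACA at that place and 42.5% held TGAG somewhere; of SCARNA RNAs, 58.3% and 70.8% did. SCARNA22 (chr4:1974636-1974760, plus strand, overlapping an exon of NSD2) held both, as did SNORA50C (chr17:64146339-64146471, plus strand). SCARNA20 (chr17:60231516-60231646, minus strand, within an intron of USP32) and SNORA57 (chr11:62665422-62665570, plus strand, overlapping an exon of CSKMT and lying antisense to LBHD1) held ACA alone.
SCARNA22: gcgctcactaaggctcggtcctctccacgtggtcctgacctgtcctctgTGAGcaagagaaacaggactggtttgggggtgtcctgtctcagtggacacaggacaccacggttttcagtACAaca
SCARNA20: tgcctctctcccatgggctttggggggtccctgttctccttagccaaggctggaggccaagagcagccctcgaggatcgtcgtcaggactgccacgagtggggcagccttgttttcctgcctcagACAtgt
SNORA57: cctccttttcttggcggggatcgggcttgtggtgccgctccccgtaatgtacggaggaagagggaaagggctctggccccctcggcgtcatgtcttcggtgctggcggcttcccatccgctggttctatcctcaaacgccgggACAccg
SNORA50C: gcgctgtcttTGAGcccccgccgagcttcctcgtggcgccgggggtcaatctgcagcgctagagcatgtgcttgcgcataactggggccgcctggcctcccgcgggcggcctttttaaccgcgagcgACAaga

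TERC (chr3:169764610-169765060, minus strand) is 451 bases long. Its first 80 bases (chr3:169764981-169765060) hold the template for the telomere repeat, capitalised from base 46. A TGAG directly after the template is left in lower case. Its last 80 bases (chr3:169764610-169764689) hold a TGAG at base 411 and the terminal ACA, the pair of motifs that SCARNA22 also held.
TERC start: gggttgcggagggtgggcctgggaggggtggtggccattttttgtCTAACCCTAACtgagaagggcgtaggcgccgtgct
TERC end: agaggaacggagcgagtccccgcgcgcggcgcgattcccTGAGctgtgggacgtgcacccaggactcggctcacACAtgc

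The study compared EIF4G2KD with Control cells within each sorted population. In CD133+ cells 7 of the 36 tested genes were called (19.4%; edgeR adjusted p below 0.05 over 10338 genes), against 7.86% of all genes tested. In these bulk libraries, fewer cells with an RNA and less RNA per cell cannot be told apart. SCARNA26A, SNORA57, SCARNA22, TERC, SNORA50C and SNORA100 were higher in EIF4G2KD, and SNHG30 was lower (6 and 1 genes, against 3.52% and 4.34% of all genes tested). The median log2 fold change of the 36 was 0.46, against 0.01 over all genes, and by class it was 2.64 for the 4 scaRNAs, 1.62 for TERC and RPPH1, 0.97 for the 5 H/ACA RNAs, 0.60 for the 3 C/D RNAs and 0.14 for the 22 host genes. These medians leave out the 30 genes under the filter. SCARNA26A, SCARNA20 and SNORA57 passed it with no CD133+ Control library at 3.28 CPM, and SCARNA26A and SNORA57 are among the 7 called. The share called, the medians and the counts of groups without overlap therefore describe the tested genes and do not test the classes. Without CD133+ EIF4G2KD library 1, whose EIF4G2 level lay inside the Control range, 6 of the 36 were called, all but SNORA50C. Across the 9 fits that left out 1 library of this comparison, 552 to 763 of all genes were called. The groups did not overlap for 6 genes higher in EIF4G2KD and 1 lower, where 4.46% and 5.59% of all genes tested did so. In CD133- cells none of the 36 was called, against 0.00967% of all genes (1 gene). There 4 had an unadjusted p below 0.05 (10.6% of all genes), and DESeq2 called none either (0.405% of all genes).

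**Figure D1:**
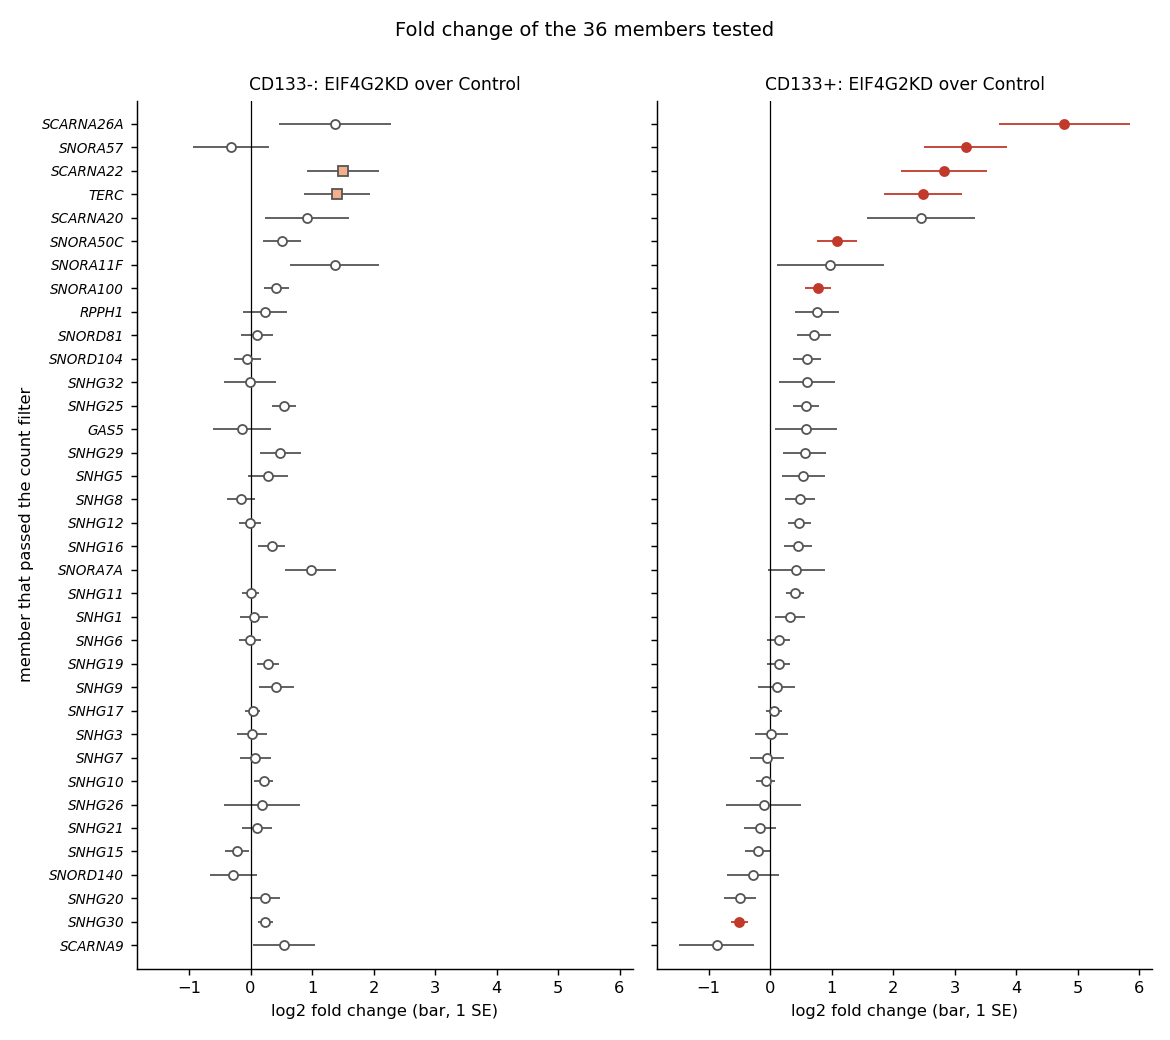
Log2 fold change (EIF4G2KD over Control) of the 36 tested genes with 1 standard error, in CD133- cells (left) and in CD133+ cells (right). Filled red points passed an edgeR adjusted p of 0.05. Orange squares, drawn for CD133- cells only, passed it only when replicate number was a term of the model. In CD133+ cells SCARNA26A, SNORA57, SCARNA22, TERC and SCARNA20 lie farthest to the right and SCARNA9 farthest to the left.

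SCARNA22, a guide RNA of the Cajal body, had 5.13, 30.2, 26.2, 18.0 and 12.8 CPM in CD133+ EIF4G2KD libraries, against 1.72, 5.43, 1.97 and 1.70 CPM in CD133+ Control libraries. Only the EIF4G2KD library numbered 1 fell within the Control range, just under the highest Control library, which was number 2. The means were 18.5 ± 10.1 CPM and 2.71 ± 1.82 CPM (SD, n = 5 and 4), a log2 fold change of 2.83 ± 0.70 (SE; edgeR adjusted p = 0.0144). In CD133- cells it had 7.46, 37.8, 14.5, 24.9 and 11.6 CPM in EIF4G2KD and 1.58, 19.7, 3.98, 6.40 and 2.31 CPM in Control. The CD133- ranges overlapped only through Control library 2, and EIF4G2KD was above the Control library of its own number in 5 of 5 pairs. Its log2 fold change there was 1.51 ± 0.59 (edgeR adjusted p = 0.414), and 1.67 ± 0.28 (edgeR adjusted p = 0.0149) in the model that also blocks on replicate number.

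TERC, the RNA of telomerase, had 6.75, 21.6, 19.7, 13.2 and 9.18 CPM in CD133+ EIF4G2KD libraries, against 0.645, 4.27, 2.30 and 3.17 CPM in CD133+ Control libraries. The CD133+ groups did not overlap, and the log2 fold change was 2.48 ± 0.64 (edgeR adjusted p = 0.0185). In CD133- cells it had 9.14, 27.4, 19.6, 17.5 and 7.28 CPM in EIF4G2KD and 1.84, 16.3, 8.62, 1.92 and 2.57 CPM in Control, again higher in 5 of 5 pairs. There its log2 fold change was 1.40 ± 0.54 (edgeR adjusted p = 0.405) and, when blocked on replicate number, 1.57 ± 0.30 (edgeR adjusted p = 0.0177). With that block SCARNA22 and TERC were the 2 genes of the 36 called in CD133- cells, against 0.871% of all genes. The knock-down effects in CD133+ and CD133- cells were not shown to differ for SCARNA22 (interaction, edgeR adjusted p = 0.63) or TERC (edgeR adjusted p = 0.683).

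TERT, the catalytic protein of telomerase, went the other way in CD133+ cells. It had 2.97, 2.45, 2.51, 1.42 and 2.50 CPM in EIF4G2KD and 7.09, 6.20, 3.94 and 7.06 CPM in Control, with no overlap, and its log2 fold change was -1.32 ± 0.32 (edgeR adjusted p = 0.0123). Its counts were low, with 11, 6, 7, 3 and 9 in the EIF4G2KD libraries and 33, 16, 12 and 29 in the Control libraries. TERT was the 1 called of 9 tested telomerase and Cajal body factors (12 genes in the list), near the 7.86% over all genes. None of the others was called in any comparison.

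SCARNA26A (chr1:155679108-155679255, overlapping an exon of YY1AP1) was near the limit of detection in CD133+ Control cells, with 1 count in each of the 4 libraries (0.215 to 0.388 CPM). The CD133+ EIF4G2KD libraries had 9, 35, 57, 6 and 15 counts, which is 2.43, 14.3, 20.5, 2.84 and 4.17 CPM. Every EIF4G2KD library was above every Control library. The ratio of summed, depth-scaled counts was 29.9 (95% exact interval 11.4 to 112, counting error only), and the fitted log2 fold change was 4.78 ± 1.07 (edgeR adjusted p = 0.00706). It held without any single library of either group, at its lowest 4.19 without CD133+ EIF4G2KD library 3. In CD133- cells it had 0.746, 11, 1.96, 1.38 and 3.00 CPM in EIF4G2KD and 0.263, 4.26, 1.66, 0.320 and 0 CPM in Control, higher in 5 of 5 pairs but not called (log2 fold change 1.37 ± 0.91, edgeR adjusted p = 0.579).

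SCARNA20 had 1.35, 6.94, 5.02, 5.20 and 2.22 CPM in CD133+ EIF4G2KD libraries, against 0.645, 1.16, 0 and 0.974 CPM in CD133+ Control libraries. These groups did not overlap either, and the counts were low. The log2 fold change of 2.45 ± 0.87 was not called by edgeR (adjusted p = 0.0957). It was called by DESeq2 (adjusted p = 0.033), and by edgeR with replicate number as a block, although the CD133+ libraries were not taken as paired. SCARNA9, the remaining tested scaRNA, had 2.16, 1.23, 0, 2.84 and 1.95 CPM in CD133+ EIF4G2KD and 2.36, 3.10, 5.26 and 1.70 CPM in CD133+ Control. It did not share the pattern: its CD133+ EIF4G2KD levels lay within or below the Control range.

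**Figure D2:**
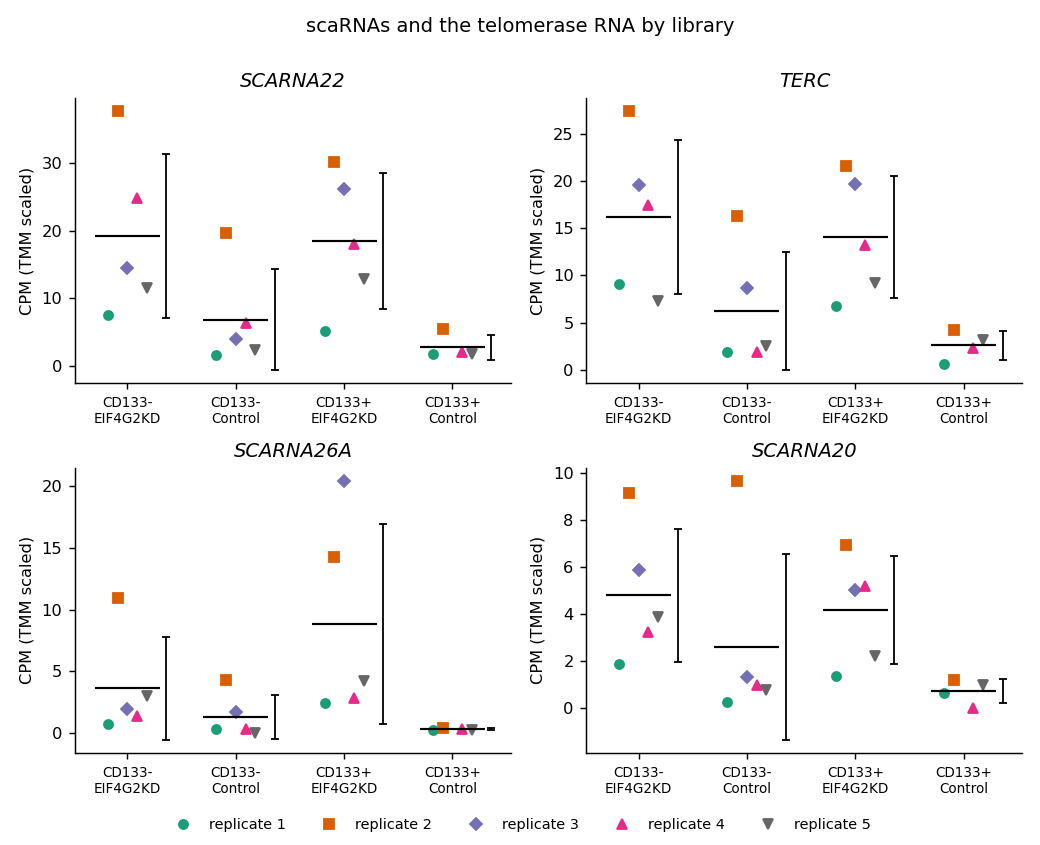
Level in CPM (vertical axes) of SCARNA22, TERC, SCARNA26A and SCARNA20 in each library of the 4 populations, coloured by replicate number, with a bar at the mean and error bars of 1 SD (n = 5, or 4 for CD133+ Control). The CD133+ Control libraries lie low in each panel, as do several CD133- Control libraries, and the libraries numbered 2 are at or near the top of most groups.

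Across the 19 libraries these 4 RNAs moved together. SCARNA22 correlated with TERC (Pearson r of log2 CPM 0.909, Spearman 0.919), with SCARNA20 (0.919, Spearman 0.904) and with SCARNA26A (0.846, Spearman 0.847). Of 10337 other genes, SCARNA20 and TERC ranked 1 and 2 in likeness to SCARNA22. SCARNA26A ranked 8, after HOXA5, CYP4F3, ZNF496, N4BP1 and NUDT3 (r from 0.881 to 0.865), so such likeness was not particular to these RNAs. Within populations, after the population means were removed, r was 0.779 with TERC, 0.852 with SCARNA20 and 0.753 with SCARNA26A. These are descriptions over 19 libraries that share the populations, the replicate numbers and the library depth. SCARNA22, TERC, SCARNA20 and SCARNA26A lie on chromosomes 4, 3, 17 and 1.

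Of the genes around the scaRNAs, only YY1AP1 was called in CD133+ cells. NSD2, a histone methyltransferase gene whose exon SCARNA22 overlaps, stayed between 71.0 and 94.7 CPM in all 19 libraries, with means of 83.4 ± 6.7 CPM in CD133+ EIF4G2KD and 82.3 ± 7.7 CPM in CD133+ Control. Its correlation with SCARNA22 was -0.05 over the 19 libraries. USP32, around SCARNA20, averaged 15.5 ± 3.2 CPM in CD133+ EIF4G2KD and 14.2 ± 1.5 CPM in CD133+ Control (r with SCARNA20 0.288). YY1AP1, around SCARNA26A, averaged 68.1 ± 5.0 CPM and 47.8 ± 7.5 CPM in the same groups, a log2 fold change of 0.50 ± 0.13 (edgeR adjusted p = 0.0184). That call was lost without CD133+ Control library 2, 4 or 5 (edgeR adjusted p = 0.07, 0.064 and 0.06). Genes of 1q, where YY1AP1 and SCARNA26A lie, had a median log2 fold change of 0.50 in CD133+ cells (450 genes), as large as that of YY1AP1; the part of this regional shift in SCARNA26A was not tested.

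**Figure D3:**
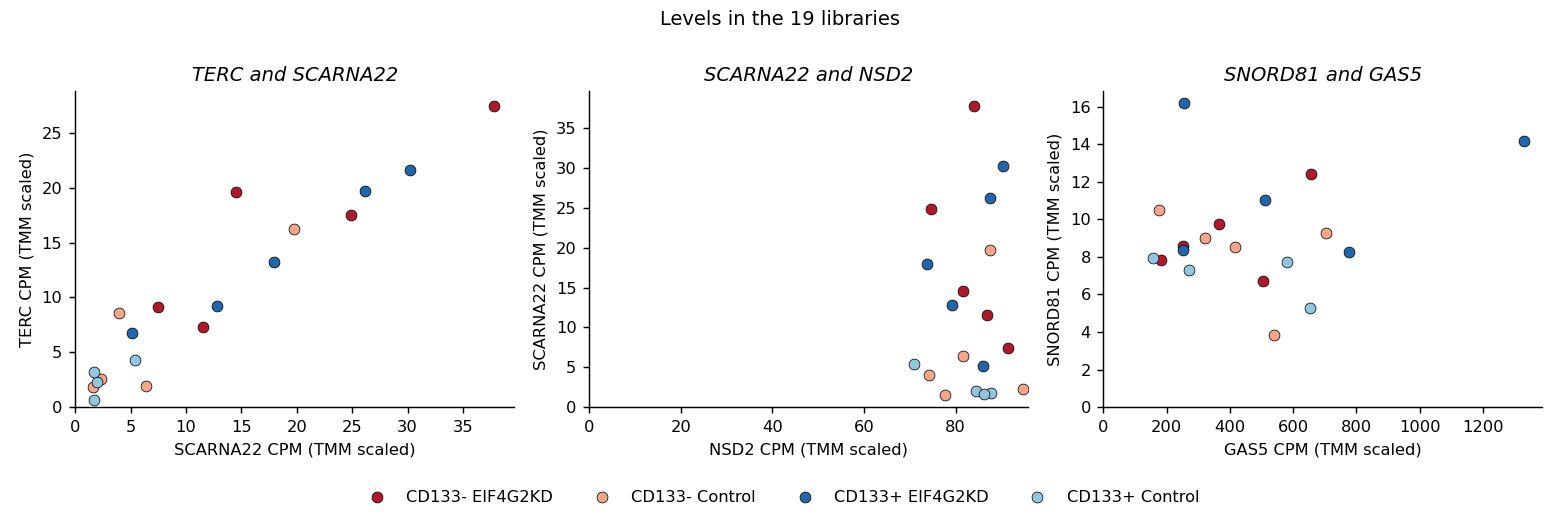
Levels of gene pairs in the 19 libraries, in CPM: SCARNA22 and TERC, SCARNA22 and the surrounding gene NSD2, and SNORD81 and its host GAS5. The first pair rises together (r = 0.909), while SCARNA22 with NSD2 and SNORD81 with GAS5 show no trend (r = -0.05 and 0.02).

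The calls of SCARNA22 and TERC rested on few Control libraries. SCARNA22 was no longer called in CD133+ cells without CD133+ Control library 1 or 5 (edgeR adjusted p = 0.053 and 0.058), nor TERC without CD133+ Control library 1 or 4 (edgeR adjusted p = 0.072 and 0.053), although the log2 fold changes stayed between 2.56 and 3.32 and between 2.09 and 2.79. Without the 4 libraries with the high component scores they were 2.66 (edgeR adjusted p = 0.027) and 2.32 (edgeR adjusted p = 0.041). In CD133- cells the SCARNA22 value was 0.75 without those 4 libraries and 2.4 without CD133- Control library 2. The level of EIF4G2 itself ran opposite to SCARNA22 across libraries (r = -0.62, Spearman -0.76), and within populations r was -0.42. For TERC and EIF4G2 it was -0.53 (Spearman -0.69), and -0.14 within populations.

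SNORA57, an H/ACA guide of ribosomal RNA, had 8.10, 6.94, 1.08, 6.15 and 9.45 CPM in CD133+ EIF4G2KD libraries, against 0.860, 0, 0.328 and 1.22 CPM in CD133+ Control libraries. The EIF4G2KD library numbered 3 (3 counts) lay within the Control range, where the libraries had 0 to 5 counts. The ratio of summed, depth-scaled counts was 9.52 (95% exact interval 4.96 to 20.5, counting error only), and the fitted log2 fold change was 3.18 ± 0.68 (edgeR adjusted p = 0.00535). The call held without any single library. In CD133- cells it had 1.49, 3.66, 1.96, 1.38 and 1.28 CPM in EIF4G2KD and 4.73, 4.26, 0.994, 0.320 and 1.28 CPM in Control, and the groups overlapped. The difference between the knock-down effects in CD133+ and CD133- cells was 3.50 ± 0.94 on the log2 scale and missed the threshold in edgeR (adjusted p = 0.0573), while DESeq2 called it (adjusted p = 0.0119). In edgeR it was called without CD133+ EIF4G2KD library 3 or CD133- Control library 4 (edgeR adjusted p = 0.019 and 0.031). The genes CSKMT and LBHD1 at its locus were not analysed here.

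SNORA100 (chr1:244854087-244854217, overlapping an exon of HNRNPU), also an H/ACA RNA, was well counted. It had 51.5, 56.8, 58.5, 40.2 and 65.9 CPM in CD133+ EIF4G2KD libraries, against 45.3, 27.1, 22.7 and 31.4 CPM in CD133+ Control libraries. Only Control library 1 exceeded the lowest EIF4G2KD library. The log2 fold change was 0.78 ± 0.21 (edgeR adjusted p = 0.0269), and the call was lost without CD133+ EIF4G2KD library 3 or 5 (edgeR adjusted p = 0.05 and 0.074) or CD133+ Control library 2, 4 or 5 (edgeR adjusted p = 0.086, 0.096 and 0.069).

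Here the surrounding gene moved in the same direction. HNRNPU, which encodes a nuclear RNA-binding protein, had 9.45, 11.8, 7.18, 8.99 and 4.17 CPM in CD133+ EIF4G2KD and 2.79, 3.88, 3.28 and 1.95 CPM in CD133+ Control, with no overlap (log2 fold change 1.49 ± 0.30, edgeR adjusted p = 0.00308). Over the 19 libraries the pair had r = 0.441, and within populations -0.164. Both lie on 1q, with its median log2 fold change of 0.50; the part of that shift in either was not tested. SNORA7A, an H/ACA RNA overlapping an exon of the ribosomal protein gene RPL32, was not called beside its host. RPL32 was higher in CD133+ EIF4G2KD (log2 fold change 1.12 ± 0.26, edgeR adjusted p = 0.00876), and SNORA7A had 5.40, 9.80, 5.38, 2.37 and 8.62 CPM there against 6.88, 5.04, 1.31 and 5.36 CPM in CD133+ Control, with overlapping groups.

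SNHG25 on 17q had the most counts of the 66 genes and carries a C/D RNA, SNORD104, in its intron, while the H/ACA RNA SNORA50C overlaps or follows its last exon, depending on the annotation. The sequence of SNORD104 (chr17:64146083-64146152, plus strand) is given with its C box (TGATGA) and D box (CTGA) in capitals. Of annotated SNORD RNAs, 62.6% had these letters within the first and last 20 bases, and of SNORA RNAs 0%.
SNORD104: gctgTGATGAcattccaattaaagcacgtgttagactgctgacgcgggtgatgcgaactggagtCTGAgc

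SNHG25 had 539, 818, 743, 432 and 449 CPM in CD133+ EIF4G2KD, above all of the 409, 388, 363 and 425 CPM in CD133+ Control, and 564, 776, 439, 861 and 788 CPM in CD133- EIF4G2KD against 470, 623, 378, 488 and 396 CPM in CD133- Control. It was higher in EIF4G2KD by a similar size in both, with log2 fold changes of 0.59 ± 0.21 and 0.54 ± 0.20, and in neither was it called (edgeR adjusted p = 0.0997 and 0.378). With replicate number as a block it was called in CD133+ cells. SNORA50C had 33.7, 45.7, 52.7, 20.8 and 52.3 CPM in CD133+ EIF4G2KD and 15.9, 22.5, 11.8 and 27.3 CPM in CD133+ Control. Its log2 fold change of 1.09 ± 0.33 was called (edgeR adjusted p = 0.0469), but without a single library the call was kept in 2 of 9 cases, those without CD133+ EIF4G2KD library 4 or CD133+ Control library 5. SNORD104 had 50.2, 47.0, 34.8, 32.2 and 50.3 CPM in CD133+ EIF4G2KD and 42.1, 20.9, 18.4 and 31.2 CPM in CD133+ Control. It was not called (log2 fold change 0.60 ± 0.23, edgeR adjusted p = 0.135). It was called without CD133+ Control library 1 (0.85, edgeR adjusted p = 0.036), and with replicate number as a block. The CD133+ libraries were not taken as paired, so blocked calls there are an alternative fit only. Over the 19 libraries SNHG25 followed SNORA50C (r = 0.713) more closely than SNORD104 (r = 0.343), which in turn was like SNORA100 on another chromosome (r = 0.83).

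SNHG30 (chr17:35568114-35574313) was the 1 host gene called, and it was lower in EIF4G2KD. It had 42.1, 45.7, 46.3, 38.8 and 37.5 CPM in CD133+ EIF4G2KD libraries, against 62.7, 46.9, 62.7 and 65.5 CPM in CD133+ Control libraries. The groups did not overlap, though Control library 2 came within 1 CPM of the highest EIF4G2KD library. The log2 fold change was -0.50 ± 0.13 (edgeR adjusted p = 0.0228). In CD133- cells it had 71.8, 77.4, 68.5, 84.3 and 91.6 CPM in EIF4G2KD and 71.2, 60.4, 61.3, 77.4 and 62.1 CPM in Control, overlapping and not called. The difference between the knock-down effects was called (interaction -0.74 ± 0.18, edgeR adjusted p = 0.0382). SNHG30 was the 1 gene of the 36 called there (2.78%), near the 1.94% of all genes. The call in CD133+ cells was lost without CD133+ EIF4G2KD library 5 or CD133+ Control library 1, 4 or 5 (edgeR adjusted p = 0.061, 0.051, 0.053 and 0.074). That of the interaction was lost without any 1 of 13 of the 19 libraries, and was kept only without CD133- EIF4G2KD library 1 or 3, CD133+ EIF4G2KD library 2 or 3, CD133- Control library 4 or CD133+ Control library 2.

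Between the EIF4G2KD populations SNHG30 was also the only gene of the 36 called (2.78%, against 7.71% of all genes). It was higher in CD133- EIF4G2KD than in CD133+ EIF4G2KD in 5 of 5 pairs with no overlap (log2 fold change 0.90 ± 0.13, edgeR adjusted p = 0.000118), and stayed called without any single library. SNORA57 had the opposite sign (-1.78 ± 0.57, edgeR adjusted p = 0.0584), and SNHG20 and SCARNA9 were higher in CD133- EIF4G2KD without being called (log2 fold changes 0.76 and 1.60, edgeR adjusted p = 0.0709 and 0.0894). Without a single library each of them was called: SNORA57 without CD133+ EIF4G2KD library 3, SNHG20 without CD133- EIF4G2KD library 1 and SCARNA9 without CD133- EIF4G2KD library 5 (edgeR adjusted p = 0.015, 0.024 and 0.045). Between the Control populations none was called, against 0.261% of all genes; 2 had an unadjusted p below 0.05 (4.34% of all genes) and DESeq2 called none (0.43%). SNHG11 came closest, with 29.9, 29.4, 29.2, 35.8 and 35.9 CPM in CD133- Control, above all of the 24.1, 22.9, 22.3 and 20.7 CPM in CD133+ Control (log2 fold change 0.51 ± 0.15, edgeR adjusted p = 0.321).

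**Figure D4:**
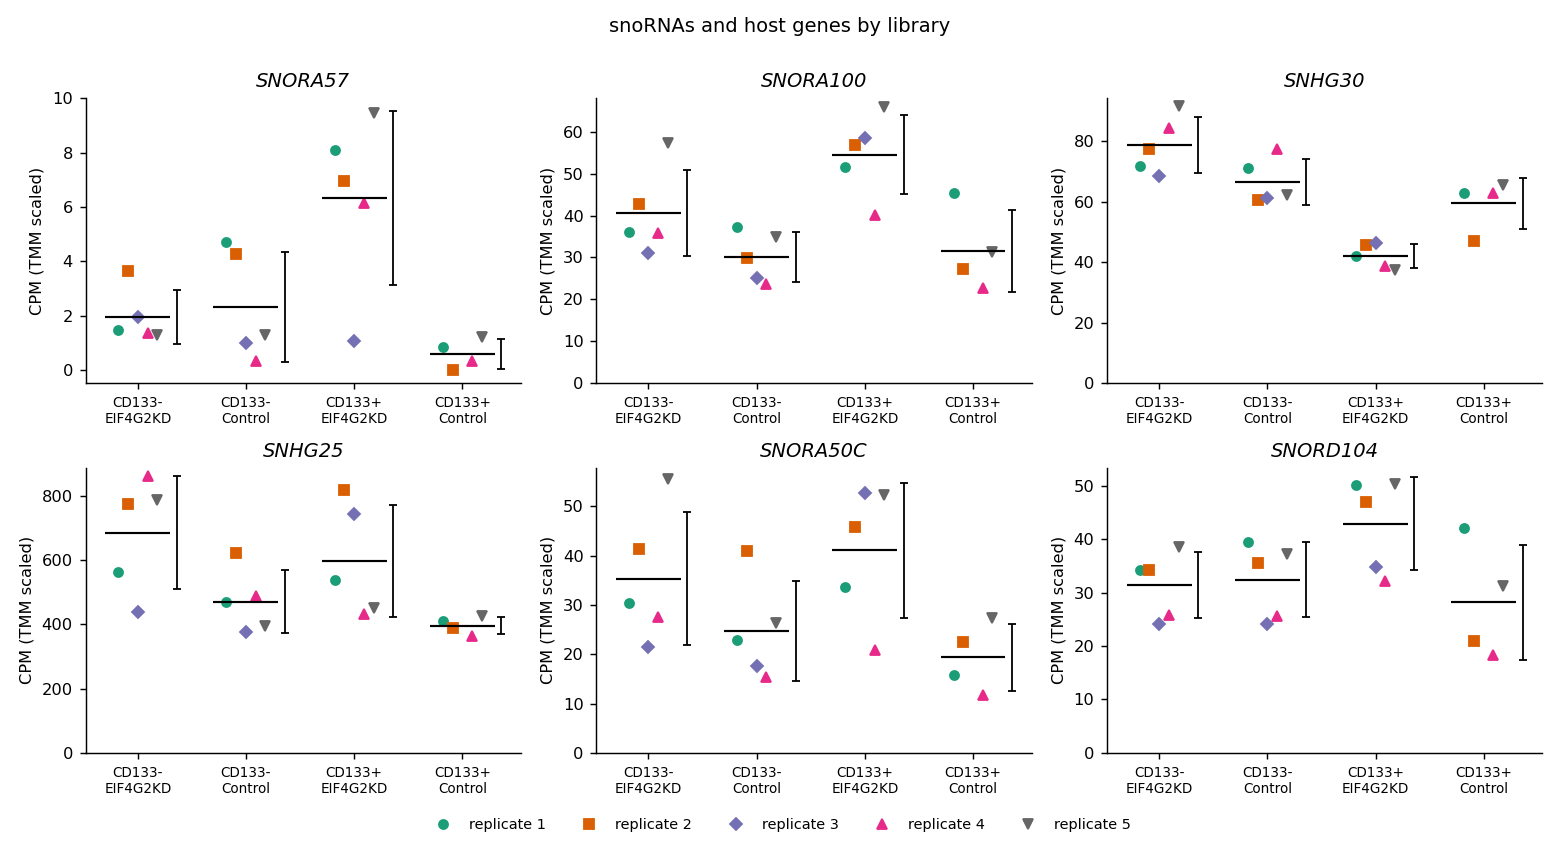
Level in CPM (vertical axes) of SNORA57, SNORA100, SNHG30, SNHG25, SNORA50C and SNORD104 in each library of the 4 populations, coloured by replicate number, with a bar at the mean and error bars of 1 SD. SNHG30 is lowest in CD133+ EIF4G2KD (37.5 to 46.3 CPM), where SNORA57 is highest in 4 of 5 libraries.

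Several host genes with high counts differed more between replicate numbers than between EIF4G2KD and Control. GAS5 (chr1:173863901-173869045, minus strand), a growth arrest transcript whose introns hold C/D RNAs, had 254, 510, 775, 1330 and 253 CPM in CD133+ EIF4G2KD against 156, 582, 652 and 272 CPM in CD133+ Control. In CD133- cells it had 182, 364, 504, 656 and 250 CPM in EIF4G2KD and 177, 415, 704, 540 and 321 CPM in Control. In all 4 populations the library numbered 3 or 4 was the highest, whichever shRNA the cells carried, and EIF4G2KD did not separate from Control (log2 fold change in CD133+ cells 0.59 ± 0.50, edgeR adjusted p = 0.59). Leaving out 1 library moved that value between 0.11, without CD133+ EIF4G2KD library 4, and 0.89, without CD133+ Control library 4. It was 0.31 without CD133+ Control library 1. Across populations GAS5 spanned 156 to 254 CPM in libraries numbered 1, 250 to 321 CPM in those numbered 5, 364 to 582 CPM in those numbered 2, 504 to 775 CPM in those numbered 3 and 540 to 1330 CPM in those numbered 4.

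SNHG32 on chromosome 6, which hosts C/D RNAs, had the same order of numbers. It spanned 102 to 169 CPM in libraries numbered 1, 183 to 273 CPM in those numbered 5, 330 to 354 CPM in those numbered 2, 373 to 560 CPM in those numbered 3 and 404 to 739 CPM in those numbered 4. Of 10337 other genes it was the most like GAS5 (r = 0.96), and SNHG5 (0.792), SNHG7 (0.761) and SNHG29 (0.724) followed in the same direction. SNHG9 ran against them (r with GAS5 -0.74), with 120 to 154 CPM in libraries numbered 1 and 47.7 to 94.9 CPM in those numbered 4. The replicate numbers accounted for 92.5% of the within-population variance of log2 CPM in SNHG32, 90.8% in GAS5, 86.2% in SNHG9, 83.0% in SCARNA22 and 77.6% in TERC. The median was 65.3% over the 36 genes and 47.1% over all genes, and what the numbers stand for beyond a repeat of the experiment is not given in the sources used here. SNHG30, in contrast, had a within-population SD of 0.169 on the log2 scale, against 0.881 for GAS5, 0.983 for SCARNA22 and 0.355 for the median gene.

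**Figure D5:**
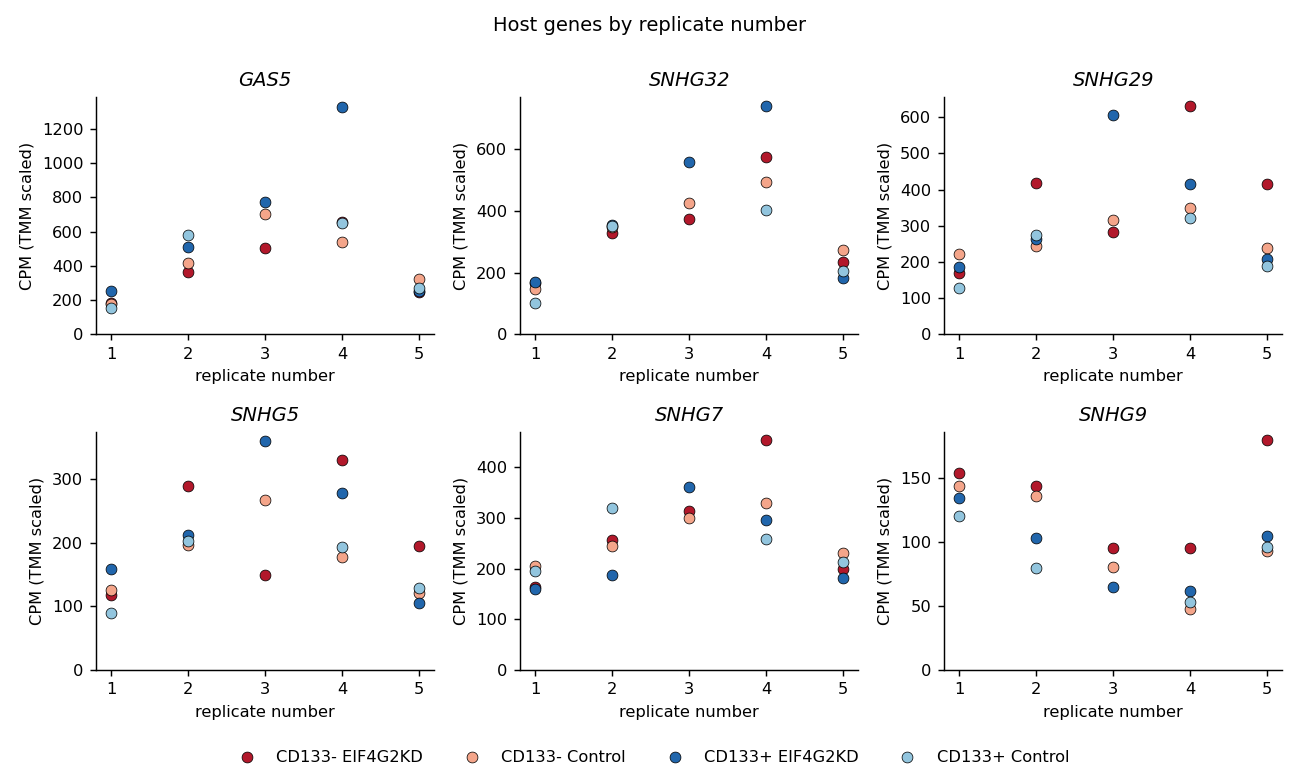
Level in CPM (vertical axes) of GAS5, SNHG32, SNHG29, SNHG5, SNHG7 and SNHG9 by replicate number (horizontal axes), each point a library coloured by population. In every population GAS5 and SNHG32 are lowest in the library numbered 1 or 5 and highest in that numbered 3 or 4, and SNHG9 runs the other way.

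Many host genes are known for a terminal oligopyrimidine start, a C followed by a run of pyrimidines at the first base of the transcript, which couples a transcript to growth control. The promoter stretches below, from RefSeq on GRCh38.p14, give the 20 bases before and the 40 bases from the annotated start of the host genes that varied together, with a C at the start followed by 4 or more C or T in capitals. SNHG32 (chr6:31834896-31834955, plus strand) and SNHG5 (chr6:85678694-85678753, minus strand) had such a run. GAS5 (chr1:173869006-173869065, minus strand), SNHG29 (chr17:16438967-16439026, plus strand) and SNHG7 (chr9:136728145-136728204, minus strand) did not at the annotated start, which may differ from the start used in these cells. The run occurred in 4 of 19 host gene promoters and in 4.07% of all 35116 promoters. These 19 do not cover every host gene: SNHG6 was left out by its chromosome, and SNHG9, SNHG15 and SNHG25 had no promoter stretch to read.
SNHG32: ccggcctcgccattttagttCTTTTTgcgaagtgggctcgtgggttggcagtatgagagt
SNHG5: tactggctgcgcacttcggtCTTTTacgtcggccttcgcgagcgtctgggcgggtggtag
GAS5: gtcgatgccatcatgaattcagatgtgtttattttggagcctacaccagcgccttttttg
SNHG29: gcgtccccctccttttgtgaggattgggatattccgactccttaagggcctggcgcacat
SNHG7: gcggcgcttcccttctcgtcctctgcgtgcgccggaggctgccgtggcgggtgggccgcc

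The guest of GAS5 that could be tested, the C/D RNA SNORD81, did not share this variation. It had 16.2, 11, 8.25, 14.2 and 8.34 CPM in CD133+ EIF4G2KD and 7.95, 7.75, 5.26 and 7.30 CPM in CD133+ Control. All EIF4G2KD libraries were above all Control libraries by a small margin, and the log2 fold change of 0.71 ± 0.28 was not called (edgeR adjusted p = 0.14). SNORD81 and GAS5 lie on 1q, and both values fell between the quartiles of its genes in CD133+ cells (0.31 to 0.75, median 0.50); the part of that shift was not tested. Its correlation with GAS5 was 0.02 over the 19 libraries and -0.13 within populations.

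The RNA subunit of RNase P was not called in CD133+ cells. RPPH1 had 11.1, 17.2, 6.46, 8.99 and 11.4 CPM in CD133+ EIF4G2KD and 7.95, 7.75, 6.24 and 4.14 CPM in CD133+ Control (log2 fold change 0.76 ± 0.36, edgeR adjusted p = 0.242). RMRP was low throughout, with 1 to 16 counts a library, and did not pass the filter. It had 2.80, 4.88, 4.48, 1.84 and 3.85 CPM in CD133- EIF4G2KD, against 1.31, 2.71, 0.663, 0.320 and 0.257 CPM in CD133- Control and 0.328 to 1.55 CPM in both CD133+ populations. The CD133- EIF4G2KD libraries were thus all above the CD133+ EIF4G2KD libraries, and without the filter this difference was called (log2 fold change 1.75, edgeR adjusted p = 0.0329). RMRP lies on 9p, whose 96 genes had a median log2 fold change of 0.64 in this comparison, and the part of that shift was not tested. Among 9 tested proteins of the 2 enzymes 1 was called, near the 7.86% over all genes: RPP25L, a subunit-like protein gene on 9p. It was lower in CD133+ EIF4G2KD than in CD133+ Control, with means of 41.8 ± 9.7 CPM and 79.5 ± 4.4 CPM (log2 fold change -0.93 ± 0.15, edgeR adjusted p = 0.000418), and higher in CD133- EIF4G2KD than in CD133+ EIF4G2KD. Genes of 9p had a median log2 fold change of -0.66 in that comparison (96 genes), and its part in this value was not tested.

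Genes for proteins that bind, assemble and degrade these RNAs are set against the shares called over all genes, 7.86% in CD133+ cells and 7.71% between the EIF4G2KD populations. None of the 4 core proteins of C/D particles and none of the 4 of H/ACA particles was called in any of the 4 comparisons, nor any of 16 tested exosome genes, 9 genes of nonsense-mediated decay or 23 rRNA processing genes. Of 9 tested assembly factors, PIH1D1 and RUVBL2 were higher in CD133- EIF4G2KD than in CD133+ EIF4G2KD and none was called elsewhere. Of 12 tested genes of RNA polymerase I, POLR1E was lower in CD133+ EIF4G2KD than in CD133+ Control, and higher in CD133- EIF4G2KD than in CD133+ EIF4G2KD. POLR1E lies on 9p, whose 96 genes had median log2 fold changes of -0.66 and 0.64 in these comparisons. Genes of chromosome 19, where PIH1D1 and RUVBL2 lie, had a median of 0.23 between the EIF4G2KD populations (777 genes). The part of these regional shifts was not tested. NEAT1 was the 1 called of 3 tested long noncoding RNAs of the nucleus (5 in the list). It was lower in CD133+ EIF4G2KD (282 to 677 CPM) than in CD133+ Control (623 to 1486 CPM, edgeR adjusted p = 0.0216). The groups overlapped through CD133+ Control library 1 (623 CPM).

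Other RNAs that lack a poly(A) tail were followed for comparison, of which 4 of 19 listed were in the table and 1 was tested. RN7SL1, the RNA of the signal recognition particle, had 59.6, 30.2, 33.7, 26.0 and 40.6 CPM in CD133+ EIF4G2KD and 30.9, 21.3, 20.7 and 11.9 CPM in CD133+ Control (log2 fold change 0.85 ± 0.34, edgeR adjusted p = 0.143). With replicate number as a block RN7SL1 was called in CD133+ cells, whose libraries were not taken as paired. RNU6ATAC, a minor spliceosomal RNA on 9q that did not pass the filter, ran the other way, with 1.35, 0.408, 1.44, 0.473 and 0.834 CPM in CD133+ EIF4G2KD against 3.65, 3.10, 4.60 and 2.68 CPM in CD133+ Control. Those groups did not overlap, and without the filter it was called (log2 fold change -1.85, edgeR adjusted p = 0.0335). Genes of 9q had a median log2 fold change of -0.46 there (339 genes), and the part of that shift was not tested.

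Summed by class, the 8 scaRNAs gave 15.1 to 60.5 CPM (median 34.1) in CD133+ EIF4G2KD, above the 5.36 to 13.2 CPM (median 9.24) in CD133+ Control. In CD133- cells the sums overlapped, with 19.6 to 71.9 CPM in EIF4G2KD and 5.90 to 51.5 CPM in Control. The 17 H/ACA RNAs summed to 81.4 to 150 CPM in CD133+ EIF4G2KD and 42.0 to 80.8 CPM in CD133+ Control, again without overlap. The 15 C/D RNAs (61.0 to 89.3 CPM and 35.8 to 68.1 CPM) and the 23 host genes (2379 to 4809 CPM and 2120 to 3313 CPM) overlapped between the same groups. The sums count all 66 genes, those that did not pass the filter included. Over all libraries SNORA100 and SNORA50C held 2386 and 1791 of the 5657 H/ACA counts. SCARNA22 held 618 of the 1443 scaRNA counts. These sums therefore rest in large part on genes already described.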

How the data were processed

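Stable EIF4G2KD and Control HEC-1A cells were sorted on CD133, and 15000 cells a sample were used for bulk MARS-seq, a 3′ counting method for polyA RNA. Per the methods and processing notes, reads were run through the UTAP pipeline, with cutadapt, alignment to hg38 by STAR 2.4.2a and HTSeq (mm10 is also listed); how reads with several matches or strand were handled is not given in the sources used here. The authors deposited raw counts per gene for 19 libraries; 1 further sample, CD133+ Control number 3, failed quality control by its label. Their 19 columns of normalized values and their DESeq2 tables, which hold log2 fold changes and p-values, were not used. The deposited counts were tested by edgeR 4.0.16 (R 4.3.3, limma 3.58.1) with TMM scaling, a filter on low counts (minimum 10, minimum total 15), 1 quasi-likelihood model of 4 population means over all 19 libraries and Benjamini-Hochberg adjustment over 10338 genes. Fold changes are log2 with their SE. CPM, correlations and figures used Python 3.11.15. DESeq2 1.42.0, RLE scaling, no filter, a replicate block, only the populations compared and leaving out libraries were alternatives. The fit was tested on simulated data.

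The labels share replicate numbers across populations. Deviations of same-numbered CD133- EIF4G2KD and CD133- Control libraries correlated in 5 of 5 pairs (0.158 to 0.518), so these were taken as paired from the data, and values with the number as a block are given beside that comparison. Some pairs fell below 0.1 in the other comparisons, so those were not taken as paired. Calls with the block in them are given as an alternative fit only. The series text gives 4 independent experiments and the labels 5 numbers, so p-values measure the spread between these samples. Any 2 libraries of a population differed beyond counting error (chi-square per degree of freedom 5.155 to 30.23). At 100 counts, counting error alone is 10%.

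Genes named in the text are SCARNA22, GAS5, TERC, RMRP and RPPH1, those called in any comparison, the 8 most abundant, the smallest p-values where fewer than 2 were called, and the surrounding genes. SNORD97, an RNA within EIF4G2, was not analysed here. The genes and lists were chosen with earlier results of these data known. HNRNPU, TERT, RPL32, SNORD81, RNU6ATAC and the replicate order of host genes were described after their values were seen. Coordinates are from RefSeq and GENCODE v44 on GRCh38.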

Additional observations from a re-analysis of the deposited data

Results flagged for a closer look

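Of 96 groups of libraries (24 named genes in 4 populations), 8 held a library far from the others of its group by Dixon's gap test, where chance alone gives about 1 in 20. In 7 of the 8 the library was numbered 2. In CD133- EIF4G2KD library 2, SCARNA26A had 11 CPM (others 0.746 to 3.00) and SNORA57 had 3.66 CPM (others 1.28 to 1.96). That SNORA57 level is 6 counts, against 8, 7, 3 and 3 counts in libraries 1, 3, 4 and 5. Library 2 had the lowest total of all libraries (1679447 counts). In CD133- Control library 2, SCARNA20 had 9.68 CPM (others 0.263 to 1.33) and SCARNA22 had 19.7 CPM (others 1.58 to 6.40). In CD133+ Control library 2, SCARNA22 had 5.43 CPM (others 1.70 to 1.97), while SNHG30 had 46.9 CPM (others 62.7 to 65.5) and SNHG20 had 4.65 CPM (others 6.90 to 7.30). The eighth was SNORA7A, low in CD133- EIF4G2KD library 4 at 6.91 CPM (others 12.8 to 14.8). The interaction term of SNHG30 was called with all libraries in the fit (-0.74 on the log2 scale, edgeR adjusted p = 0.0382). That call was lost without any 1 of 13 of the 19 libraries.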

How the results depend on the processing

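A set of 36 fold changes, most of them given in the text, kept their direction under every alternative that could fit them. This set is not the 36 tested genes, and the values of RMRP and RNU6ATAC without the filter are not in it. In the set, calls were lost in 47 alternative fits and gained in 19. Among 150 other fold changes of the tested genes, 224 alternative fits reversed the direction. The 24 class sums moved by less than 1 SD with plain CPM. With the replicate number as a block (replicate block), the genes called numbered 90 in CD133- EIF4G2KD over CD133- Control (1 without it), 1701 in CD133+ EIF4G2KD over CD133+ Control (813), 78 in CD133- Control over CD133+ Control (27), 1674 in CD133- EIF4G2KD over CD133+ EIF4G2KD (797) and 678 for the interaction (201); of the 36 small RNAs and hosts it called 2, 12, 0, 11 and 4, against 7 in CD133+ cells, 1 between the EIF4G2KD populations, 1 for the interaction and 0 otherwise. The calls that the block added included SCARNA20, SNHG25, SNORD104 and RN7SL1 in CD133+ cells (edgeR adjusted p = 0.013, 0.042, 0.0022 and 0.025), of SNHG20 and SNORA57 between the EIF4G2KD populations (edgeR adjusted p = 0.045 and 0.021) and of SNORA57 and SNORD104 for the interaction (edgeR adjusted p = 0.013 and 0.026). Of 19 libraries 12 correlated best with their own number. DESeq2 called 42 genes in CD133- cells, 54 between the Control populations and 339 for the interaction, and 3 small RNAs and hosts between the EIF4G2KD populations and 2 for the interaction. Without the filter 2 were called between the EIF4G2KD populations. With only the populations compared, 0 genes were called in CD133- cells, 14 between the Control populations and 462 between the EIF4G2KD populations. Without CD133- EIF4G2KD libraries 4 and 5 CD133- cells had 0 genes and the interaction 133, with 0 of the 36. Without the 4 libraries with high component scores CD133- cells had 0 genes, the EIF4G2KD populations 292 and the interaction 115, with 0 of the 36. Without all libraries numbered 2, chosen after seeing the data, there were 30, 450, 14, 438 and 115 genes in the order above, and 4 of the small RNAs and hosts in CD133+ cells and 0 for the interaction. Leaving out 1 library gave 0 to 60 genes (60 without CD133- Control library 2), 552 to 763, 18 to 27, 584 to 826 and 128 to 213 in that order. The 36 then had 3 to 7 calls in CD133+ cells, with 3 without CD133+ Control library 4 and 4 without CD133+ EIF4G2KD library 5 or CD133+ Control library 1 or 5. They had 1 to 3 calls between the EIF4G2KD populations, with 3 without CD133+ EIF4G2KD library 3, and 0 to 2 for the interaction. The cause of these moves was not tested. Depth limits the low genes: SCARNA26A, SCARNA20 and SNORA57 had 0 to 5 counts in each CD133+ Control library.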
